A study of Homo sapiens with 8 samples.

Results

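SELENBP1, the gene of selenium-binding protein 1, was followed across 8 RNA-Seq libraries of BEAS-2B, a line of immortalised cells from human bronchial epithelium. It was 1 of 25411 genes listed in every library, and it was chosen because its level parted between 2 groups of clone-derived cells, so its own levels are described below without a test. The protein binds selenium tightly but carries no selenocysteine, which sets it apart from the selenoproteins, in which selenium is built into the chain as that amino acid. It acts as a methanethiol oxidase, an enzyme that turns a sulfur-containing gas into hydrogen sulfide, hydrogen peroxide and formaldehyde. It is abundant in the epithelium of lung and colon and in liver, and is often reduced in carcinomas of these tissues.

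The libraries formed 4 groups of 2 biological replicates. Untreated cells (UT) were the control. Nickel-exposed cells (Ni-E) were grown for 6 weeks with the soluble nickel salt NiCl2 at 100 µM and harvested with nickel present. Nickel-washed-out cells (Ni-W) received the same exposure and were then grown in nickel-free medium for over 6 months as a randomly picked population that arose from 1 colony of a single cell. HCl3 cells carried the same treatment description as Ni-W, but the labels gave neither the length of their nickel-free growth nor how they relate to Ni-W. By that description each of these last groups is taken here as a clonal population, and whether they share a founder cell is not given. What came from nickel and what came from a founder cell cannot be told apart. The labels assigned both Ni-E libraries to experiment 2 and the HCl3 libraries to experiments 3 and 4 but left UT and Ni-W unnumbered, so experiment and group cannot be told apart either.

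The libraries held between 26383920 and 45692298 reads assigned to genes. Among markers of epithelial cells, the keratins KRT7, KRT8 and KRT18 were high in all libraries, with KRT8 between 192 and 310 RPKM, a read count corrected for transcript length and library depth, whereas EPCAM stayed between 0.95 and 1.79 RPKM and CDH1, which encodes E-cadherin, did not exceed 0.11 RPKM. TP63, a defining factor of airway basal cells, and SFTPC, a marker of alveolar type II cells, had no reads in any library. COL1A1, a collagen gene typical of fibroblasts, reached 178 to 454 RPKM. The summed level of the 5 fibroblast markers was 243 to 269 RPKM in Ni-W, 461 to 484 in HCl3, 358 to 413 in UT and 188 to 353 in Ni-E. Most of this sum was COL1A1. The sum parted Ni-W from HCl3 in the same direction as SELENBP1 but did not part Ni-W from Ni-E. PDGFRB was higher in Ni-W (24.7 and 23.2 RPKM) than in Ni-E (10.6 and 15.7 RPKM). COL1A2 was also higher in Ni-W (0.25 and 0.18 RPKM) than in Ni-E (0.03 RPKM in both). COL3A1 and PDGFRA did not exceed 0.07 RPKM in any library. The summed level of the 7 epithelial markers was 947 to 972 RPKM in Ni-W and 935 to 996 in HCl3, above the 602 to 636 in UT and 579 to 794 in Ni-E without overlap. Nearly all of this sum was KRT7, KRT8 and KRT18. KRT19 did not exceed 0.02 RPKM in UT and Ni-E and was at 0.53 to 0.78 RPKM in Ni-W and HCl3. CLDN4 did not exceed 0.21 RPKM in any library. The part of these markers in the results below was not tested.

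SELENBP1 lies on the minus strand of chromosome 1, at positions 151336778 to 151345210 of hg19, a span of 8433 bases that carries 3 listed RefSeq transcripts and overlaps no other listed gene. Its reads were counted over the exons of these transcripts together, and exons or untranslated regions have no value of their own. In UT, 335 and 204 reads corresponded to 4.53 and 4.05 RPKM. In Ni-E, 306 and 362 reads corresponded to 4.52 and 5.36 RPKM, so exposed and untreated cells overlapped. In Ni-W, only 7 and 4 reads were counted, 0.09 RPKM in both libraries. In HCl3, 267 and 305 reads corresponded to 3.78 and 4.09 RPKM. The Ni-W libraries were thus far below all others, and the other 6 libraries lay close to one another. A count of 7 reads has an exact Poisson 95% interval of 2.81 to 14.4 reads and a count of 4 one of 1.09 to 10.2 reads, which cover counting error only. Both counts were above the floor of 3 reads set here, but both intervals reach below it. Whether these few reads reflect expression in Ni-W was not tested. Because the libraries come from bulk cultures, fewer cells that express SELENBP1 and less of its RNA in each cell cannot be told apart.

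**Figure D1:**
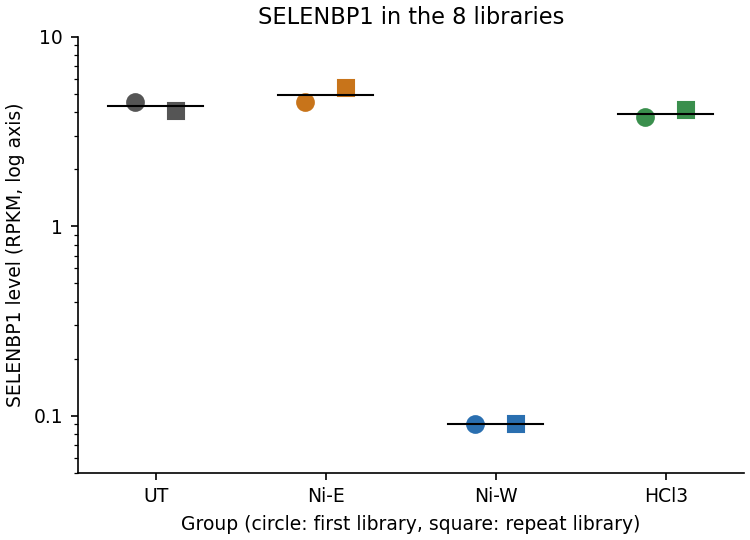
SELENBP1 level in RPKM (y axis, log scale) in the 4 groups (x axis), with a circle for the first library, a square for the repeat library and a line at the mean of the group (n = 2). The Ni-W libraries both sit at 0.09 RPKM, and the other 6 libraries lie between 3.78 and 5.36 RPKM.

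Ranked against all genes of the same library, SELENBP1 exceeded 64.5 to 68% of the listed genes in UT, Ni-E and HCl3, but only 42.1 and 42.6% of them in Ni-W. Mean levels were 4.94 ± 0.59 RPKM in Ni-E, 4.29 ± 0.34 in UT, 3.93 ± 0.22 in HCl3 and 0.09 ± 0 in Ni-W (SD, n = 2 each). In this order the neighbours Ni-E and UT overlapped, as did UT and HCl3, whereas HCl3 and Ni-W were far apart. Between Ni-E and HCl3, which are not adjacent, the libraries did not overlap, with a log2 fold change of HCl3 over Ni-E of -0.37 ± 0.20 (SE), or 1.29-fold. The SD of 0 in Ni-W reflects RPKM values given to 2 decimals. Read counts scaled for library depth had a mean of 4.91 and an SD of 0.561 in Ni-W.

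Fitted to the read counts, the log2 fold change of SELENBP1 in Ni-W over UT was -5.91 ± 0.51 (SE), a level 59.9-fold lower. Errors given after a log2 fold change are standard errors in all cases. Against Ni-E it was -6.09 ± 0.51, or 68.1-fold lower. HCl3 exceeded Ni-W by 5.72 ± 0.50 on the log2 scale, or 52.9-fold. The remaining changes were small. The log2 fold change was 0.17 ± 0.22 in Ni-E over UT and -0.19 ± 0.21 in HCl3 over UT. The level therefore stayed near that of the control while nickel was present and in 1 of the clonal populations, and was low in the other. The size of the Ni-W change depended on the scale, since on log2(RPKM + 1) the log2 fold change over UT was -2.28, as a pseudocount of 1 exceeds the Ni-W level itself.

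Genes around SELENBP1 were examined to see whether its level moved with that of its chromosomal neighbourhood. Within 1 Mb of either end of SELENBP1, 64 other genes were listed, of which 7 had no reads in any library. Between HCl3 and Ni-W, where SELENBP1 parted most clearly between the clonal populations, 0 of 46 tested neighbours changed by at least 1.5-fold at an adjusted P value under 0.05 in DESeq2, against 4.9% of all 14605 genes tested. The count was also 0 in edgeR, in limma on RPKM values, and in DESeq2 at an unadjusted P value under 0.05 with the same fold. ARNT, which encodes the dimer partner of the hypoxia-inducible factors and was singled out after its values were seen, came closest to the fold threshold among neighbours with an adjusted P value under 0.05. Its levels were 16.7 and 17.1 RPKM in Ni-W and 11.9 and 11.3 RPKM in HCl3, a log2 fold change of -0.56 ± 0.09 (adjusted P = 6.16e-09). Without the first HCl3 library or without the first Ni-W library, ARNT reached -0.59 and 1 neighbour was called.

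The neighbours were, as a group, slightly lower in HCl3 than in Ni-W, the opposite direction to SELENBP1. Their median log2 fold change was -0.30, or 1.23-fold, where the median of all genes tested was -0.00, and 39 of 46 were below 0. Without a fold minimum, 21 of 46 (45.7%) had an adjusted P value under 0.05 and a lower level in HCl3, against 8.38% of all genes, and 0 had a higher level, against 8.71% of all genes. In 35 of 46 both HCl3 libraries were below both Ni-W libraries, which held for 31.7% of all genes, and in 2 both were above, against 30.9%. Across genes, log2 fold changes of HCl3 over Ni-W rose with the GC content of the transcript (Spearman's rho = 0.345), and the median of the neighbours was -0.31 once that trend was removed.

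The same region was slightly higher in Ni-W than in UT. Of 48 neighbours tested, 5 rose by at least 1.5-fold and 0 fell (10.4%, against 16.1% of all genes called in either direction), so calls were no more frequent than elsewhere. The median log2 fold change was 0.31, or 1.24-fold, against 0.01 for all genes, and 42 of 48 were above 0. Without a fold minimum 23 of 48 (47.9%) were higher in Ni-W, against 17.9% of all genes, and 0 were lower, against 14% of all genes. In 31 of 48 both Ni-W libraries exceeded both UT libraries, against 36.3% of all genes, and in 4 both were below, against 33.5%. The comparison shares the Ni-W libraries with the one above, so the medians are not independent of each other.

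The 3 nearest expressed genes on each side are given in every library. On the lower side, RFX5, a subunit of the factor that binds promoters of MHC class II genes, was at 15.0 and 15.4 RPKM in UT, 16.9 and 18.5 RPKM in Ni-E, 19.6 and 18.3 RPKM in Ni-W, and 15.3 and 16.5 RPKM in HCl3. PI4KB, a lipid kinase of the Golgi, was at 27.4 and 27.8 RPKM in UT, 32.17 and 30.96 RPKM in Ni-E, 35.1 and 34.0 RPKM in Ni-W, and 28.9 and 30.2 RPKM in HCl3. ZNF687, a zinc finger protein gene that overlaps PI4KB on the opposite strand, was at 8.55 and 9.03 RPKM in UT, 9.68 and 11.1 RPKM in Ni-E, 11.89 and 12 RPKM in Ni-W, and 10.2 and 10.4 RPKM in HCl3. Each of these was highest in Ni-W on average, in which SELENBP1 was lowest, and whether reads of PI4KB and ZNF687 were separated by strand was not stated.

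On the higher side, PSMB4, a subunit of the proteasome core, lay 26.8 kb from SELENBP1 and was at 393 and 359 RPKM in UT, 418 and 411 RPKM in Ni-E, 472 and 443 RPKM in Ni-W, and 339 and 365 RPKM in HCl3. POGZ, a chromatin-associated zinc finger protein, was at 13.9 and 15.0 RPKM in UT, 11.9 and 13.3 RPKM in Ni-E, 18.2 and 20.2 RPKM in Ni-W, and 15.5 and 15.9 RPKM in HCl3. CGN, which encodes the tight junction protein cingulin, was low throughout, between 0.52 and 0.93 RPKM. In DESeq2, the log2 fold changes of HCl3 over Ni-W were -0.27 ± 0.09 for RFX5 (adjusted P = 0.0228), -0.26 ± 0.08 for PI4KB (0.00702), -0.23 ± 0.09 for ZNF687 (0.0596), -0.39 ± 0.07 for PSMB4 (3e-06), -0.31 ± 0.08 for POGZ (0.003) and -0.26 ± 0.24 for CGN (0.539). RFX5 ended 17.0 kb from SELENBP1, so the genes next to it on both sides were expressed in Ni-W at or above their level in UT.

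The 5 neighbours that rose in Ni-W over UT were of varied function. PIP5K1A, a kinase that makes the membrane lipid PIP2, was at 42.9 and 45.3 RPKM in UT and 68.7 and 72.2 RPKM in Ni-W, a log2 fold change of 0.64 ± 0.10 (adjusted P = 3.73e-09). PRUNE, which encodes a phosphatase of short polyphosphates, was at 10.9 and 11.7 RPKM in UT and 18.1 and 17.1 RPKM in Ni-W (0.61 ± 0.12). The others were LYSMD1 (0.60 ± 0.18), whose interval overlaps genes of the opposite strand, the lysosomal protease gene CTSK (1.06 ± 0.44) and TCHH (2.14 ± 0.78), which encodes a structural protein of the hair follicle and did not exceed 0.13 RPKM. All of these but PIP5K1A lost the call without at least 1 of the 4 libraries, and the count fell to 2 without either Ni-W library and to 3 without either UT library.

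In Ni-E over UT, 2 of 45 neighbours tested were called (4.44%, against 5.94% of all genes), and in HCl3 over UT 1 of 47 (2.13%, against 15.2%). These genes were named after their values were seen. MLLT11 rose in Ni-E by 0.85 ± 0.14 on the log2 scale (adjusted P = 5.03e-08), and S100A10, which encodes a partner of annexin A2, fell by 0.89 (SE 0.10, adjusted P = 3.79e-15). ADAMTSL4, which encodes an extracellular matrix protein, rose in HCl3 by 0.74 ± 0.13 (adjusted P = 2.5e-07), and this call was lost once the GC trend was removed (0.58). The medians of the neighbours were 0.01 in Ni-E over UT and 0.02 in HCl3 over UT, both close to 0. Calls of neighbours in Ni-W over Ni-E, where SELENBP1 changed most, were not counted against all genes. There ANXA9 was called lower, as SELENBP1 was, at -1.70 ± 0.44 (DESeq2, adjusted P = 0.000522). ANXA9 was also lower in HCl3 than in Ni-E, at -2.13 ± 0.47. RPRD2, CTSK, ARNT, POGZ, S100A10, TCHH and HRNR were called higher in Ni-W than in Ni-E.

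**Figure D2:**
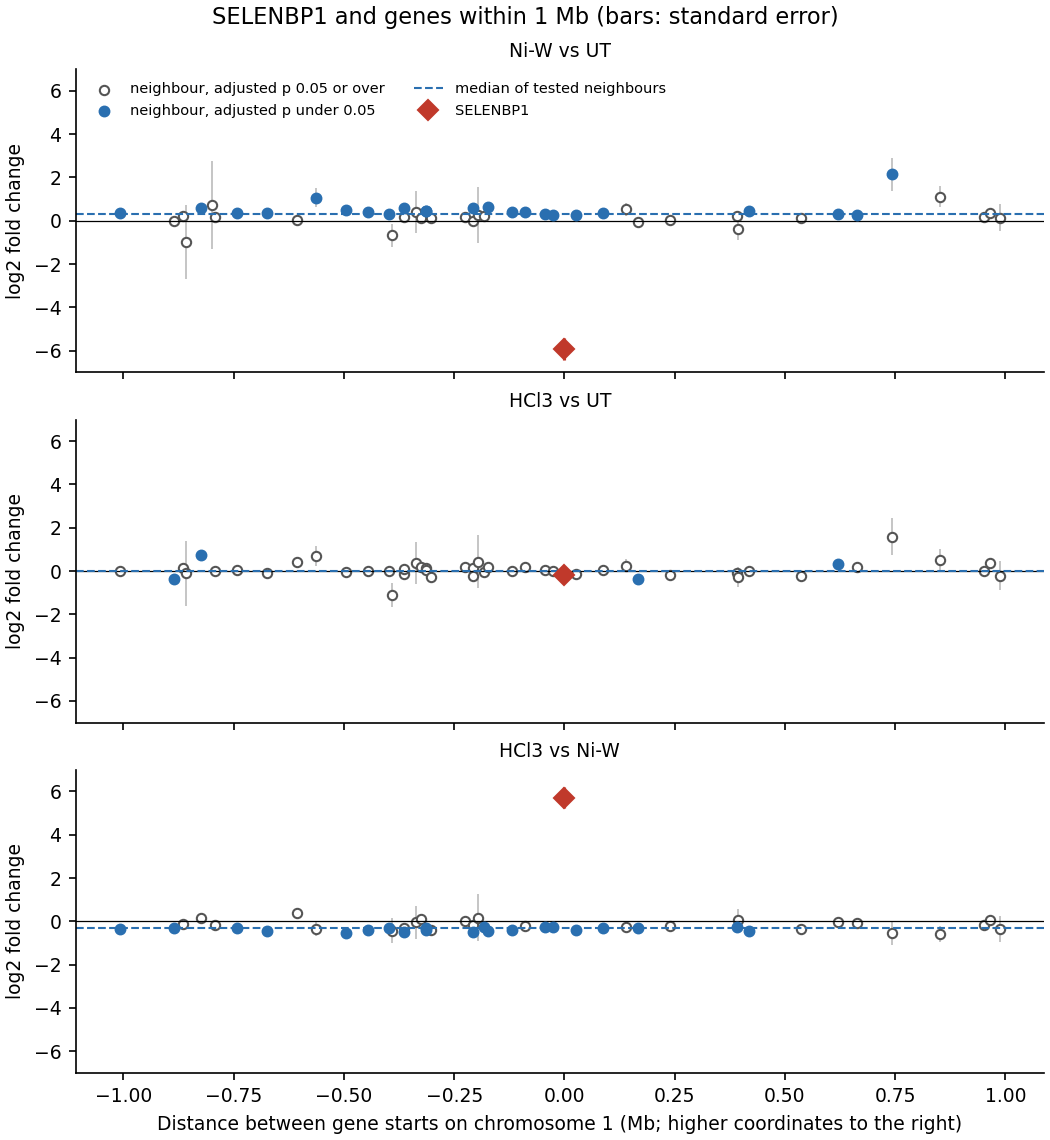
Log2 fold change (y axis) of SELENBP1 (red diamond) and of each tested gene within 1 Mb (circles, filled where the adjusted P value in DESeq2 was under 0.05) against the distance between gene starts in Mb (x axis), for Ni-W over UT, HCl3 over UT and HCl3 over Ni-W. Bars are standard errors and the dashed line is the median of the neighbours, at 0.31, 0.02 and -0.30, while SELENBP1 stands at -5.91, -0.19 and 5.72.

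Genes at the limit of 1 Mb are given without a test. Just inside it on the lower side, RPRD2 was at 10.8 and 11.3 RPKM in UT, 14.4 and 14.6 RPKM in Ni-W, and 11.6 and 11.2 RPKM in HCl3, and just outside it PRPF3 was at 22.2 and 23.8, 27.8 and 28.3, and 22.3 and 23.5 RPKM in the same groups. On the higher side, FLG2 inside the limit did not exceed 0.08 RPKM and CRNN outside it was listed at 0 in all libraries, so this side shows no level to compare.

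The offset of the neighbours was part of a longer stretch of chromosome 1. Between 10 Mb below and 100 Mb above SELENBP1, in classes of distance with at least 15 tested genes, the median log2 fold change of Ni-W over UT was 0.16 to 0.51, whereas it was -0.07 in the class from 152 to 100 Mb below and -0.11 in that from 100 to 30 Mb below. The same classes gave -0.20 to -0.31 for HCl3 over Ni-W near and above SELENBP1, against 0.06 and -0.01 in the far classes below. Classes with under 20 tested genes in at least 1 comparison were those from 5 to 1 Mb below and from 0 to 1 Mb above, and without them the range of Ni-W over UT stayed at 0.16 to 0.51. Medians of whole chromosomes ranged from -0.13 on chromosome 21 to 0.48 on chromosome 15 in Ni-W over UT. In HCl3 over Ni-W they ranged from -0.28 on chromosome 18 to 0.09 on chromosome 16, and the median of the neighbours, -0.30, was slightly beyond the lowest of them.

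**Figure D3:**
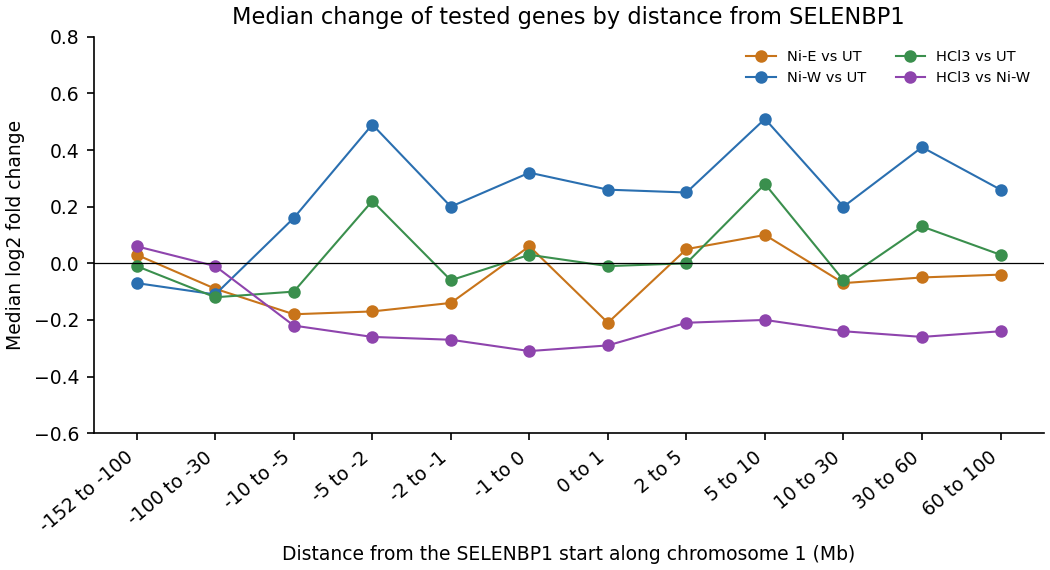
Median log2 fold change of tested genes (y axis) by distance from the start of SELENBP1 along chromosome 1 in Mb (x axis, unequal classes, with no tested gene between 30 and 10 Mb below and the class from 1 to 2 Mb above, with 1 tested gene, left out). From 10 Mb below upward, Ni-W over UT lies above 0, at 0.16 to 0.51, and HCl3 over Ni-W lies below 0, at -0.20 to -0.31.

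Genes that share the chemistry of SELENBP1 were taken as 4 lists of 58 genes in all. These were selenoproteins, the machinery that makes and inserts selenocysteine, the enzymes of hydrogen sulfide and sulfur metabolism, and enzymes handling peroxide and formaldehyde. All were listed, 3 had no reads, and 51 were tested in each of the comparisons given here. Between HCl3 and Ni-W, 1 of 51 was called (1.96%, against 4.9% of all genes), and the median log2 fold change was -0.10. In Ni-E over UT 3 rose and 1 fell (7.84%, against 5.94% of all genes), in Ni-W over UT 8 rose and 1 fell (17.6%, against 16.1%), and in HCl3 over UT 3 rose and 2 fell (9.8%, against 15.2%). The gene called between HCl3 and Ni-W was SELENOK (listed as SELK), a selenoprotein of the endoplasmic reticulum, at 55.5 and 41.3 RPKM in UT, 46.7 and 48.2 RPKM in Ni-E, 54.9 and 48.7 RPKM in Ni-W, and 31.3 and 34.3 RPKM in HCl3. HCl3 was below all other libraries, by 0.67 on the log2 scale against Ni-W (log2 fold change -0.67 ± 0.11, adjusted P = 5.19e-08), so SELENOK was lower in the clonal population in which SELENBP1 was higher.

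No other selenoprotein tested was called between the clonal populations. The share of this list was thus 1 of 19 (5.26%), near the 4.9% of all genes. GPX1, a peroxide-reducing enzyme whose level has been described as moving inversely with that of SELENBP1, was at 201 and 172 RPKM in UT, 179.6 and 184 RPKM in Ni-E, 182 and 166 RPKM in Ni-W, and 167 and 175 RPKM in HCl3. Ni-W and HCl3 overlapped, and the log2 fold change of HCl3 over Ni-W was -0.04 ± 0.08 (adjusted P = 0.814). GPX4, which reduces lipid peroxides, was at 131 to 184 RPKM over the 8 libraries, with a log2 fold change of 0.13 ± 0.09 (adjusted P = 0.396). TXNRD1, the cytosolic thioredoxin reductase, was at 224 and 223 RPKM in Ni-W and 167 and 162 RPKM in HCl3, a change of -0.46 ± 0.06 (adjusted P = 2.47e-10) that stayed under 1.5-fold.

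Against UT, 3 of 19 selenoproteins tested were called in Ni-W, all upward (15.8%, against 16.1% of all genes). DIO2, which activates thyroid hormone, moved most. It was at 17.9 and 17.9 RPKM in UT, 1.38 and 4.13 RPKM in Ni-E, 52.5 and 54.3 RPKM in Ni-W, and 45.1 and 44.7 RPKM in HCl3. Its log2 fold change over UT was -2.76 ± 0.71 in Ni-E (adjusted P = 0.00205), 1.55 ± 0.10 in Ni-W (4.25e-53) and 1.27 ± 0.09 in HCl3 (9.66e-44), so it was low while nickel was present and high in both clonal populations. The Ni-E call was lost without either UT library (adjusted P = 0.158 and 0.259). GPX3, a secreted glutathione peroxidase, rose by 1.10 ± 0.41 in Ni-W and TXNRD3, a thioredoxin reductase best known from testis, by 0.74 ± 0.21. The first lost its call without any 1 of the 4 libraries and the second without any but the second UT library. In HCl3 SELENON (listed as SEPN1), another selenoprotein of the endoplasmic reticulum, rose by 0.59 ± 0.09 (adjusted P = 1e-08), and SELENOK fell by 0.62 (SE 0.15, adjusted P = 0.00025). SELENON lost its call without the first HCl3 or the second UT library, and SELENOK without the first HCl3 or the first UT library.

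Of the 10 genes that make selenocysteine or handle selenium, 1 was called in Ni-W over UT (10%, against 16.1% of all genes) and 0 in HCl3 over UT (against 15.2%). EEFSEC, the elongation factor that delivers selenocysteine to the ribosome, was at 9.12 and 8.58 RPKM in UT, 11.2 and 12.7 RPKM in Ni-E, 15.1 and 14.8 RPKM in Ni-W, and 13.7 and 13.4 RPKM in HCl3. It rose by 0.72 ± 0.14 in Ni-W (adjusted P = 1.77e-06), and the change in HCl3 was 0.56 ± 0.13, just under the fold threshold. The most abundant members were SARS1, which charges the selenocysteine tRNA with serine, at 85.9 to 169 RPKM, and SEPHS1, at 28.04 to 32.32 RPKM, with log2 fold changes of HCl3 over Ni-W of 0.06 ± 0.07 and -0.03 ± 0.08.

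Of the sulfur enzymes, 3 of 8 tested rose in Ni-E over UT (37.5%, against 3.84% of all genes called upward) and 0 fell. CBS, which makes cystathionine and can release hydrogen sulfide, was at 20.4 and 17.6 RPKM in UT, 46.2 and 57.6 RPKM in Ni-E, 19.2 and 17.0 RPKM in Ni-W, and 15.9 and 17.2 RPKM in HCl3, a change of 1.38 ± 0.13 in Ni-E (adjusted P = 9.58e-22). CTH, the next enzyme of the pathway, was at 4.80 and 4.43 RPKM in UT, 8.78 and 10.1 RPKM in Ni-E, 2.38 and 2.65 RPKM in Ni-W, and 2.08 and 2.20 RPKM in HCl3. Its log2 fold change over UT was 0.98 ± 0.17 in Ni-E (adjusted P = 1.48e-06), -0.91 ± 0.21 in Ni-W (0.000115) and -1.17 ± 0.21 in HCl3 (2.17e-07). ETHE1, a mitochondrial enzyme that oxidises persulfide, rose by 0.64 ± 0.14 in Ni-E, and this call was lost without the first Ni-E or the second UT library and once the GC trend was removed (0.44). CBS and ETHE1 were named after their values were seen.

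In Ni-W over UT, 3 of 8 sulfur genes tested were called (37.5%, against 16.1% of all genes), of which 2 rose and CTH fell. TST, which encodes rhodanese, a sulfur transferase, was at 12.5 and 10.4 RPKM in UT, 21.4 and 18.2 RPKM in Ni-W, and 19.9 and 21.0 RPKM in HCl3, a change of 0.76 ± 0.17 in Ni-W (adjusted P = 6.18e-05) and 0.78 ± 0.15 in HCl3 (4.82e-06). CDO1, which oxidises cysteine, rose by 0.85 ± 0.27 in Ni-W, a call lost without any 1 of the 4 libraries. CTH and TST lost theirs in Ni-W without the first Ni-W library. MPST, which makes hydrogen sulfide from mercaptopyruvate, had the highest level among members with no call over UT or between HCl3 and Ni-W. It was at 23.2 to 46.8 RPKM, with 0.26 ± 0.11 in HCl3 over Ni-W (adjusted P = 0.0851). Against Ni-E it was called lower in Ni-W (-0.88 ± 0.12) and in HCl3 (-0.62 ± 0.11). None of the 8 sulfur genes tested was called between HCl3 and Ni-W (against 4.9% of all genes, under 1 gene in 8), and their log2 fold changes spanned -0.30 to 0.26.

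Among the 14 genes that handle peroxide and formaldehyde, which are products of SELENBP1, 2 rose in Ni-W over UT (14.3%, against 16.1% of all genes called). In HCl3 over UT 0 were called (against 15.2%), and between HCl3 and Ni-W 0 (against 4.9%). ALDH2, a mitochondrial aldehyde dehydrogenase, was at 11.96 and 10.77 RPKM in UT, 13.9 and 12.8 RPKM in Ni-E, 21.95 and 22.16 RPKM in Ni-W, and 16.8 and 17.4 RPKM in HCl3, a change of 0.93 ± 0.13 in Ni-W (adjusted P = 3.79e-11). SOD3, the extracellular superoxide dismutase, rose by 3.08 ± 1.19 from levels of 0.02 and 0.05 RPKM in UT to 0.24 and 0.37 RPKM in Ni-W, and lost the call without any 1 of the 4 libraries. PRDX1 and SOD1, the most abundant members, were at 505 to 770.2 and 387 to 565 RPKM, with changes of HCl3 over Ni-W of -0.14 ± 0.07 and -0.22 ± 0.08. Where a list had 0 calls in DESeq2 in these comparisons, it also had 0 in edgeR and 0 at an unadjusted P value under 0.05 with the same fold, except that both gave 1 gene of this list in HCl3 over UT.

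**Figure D4:**
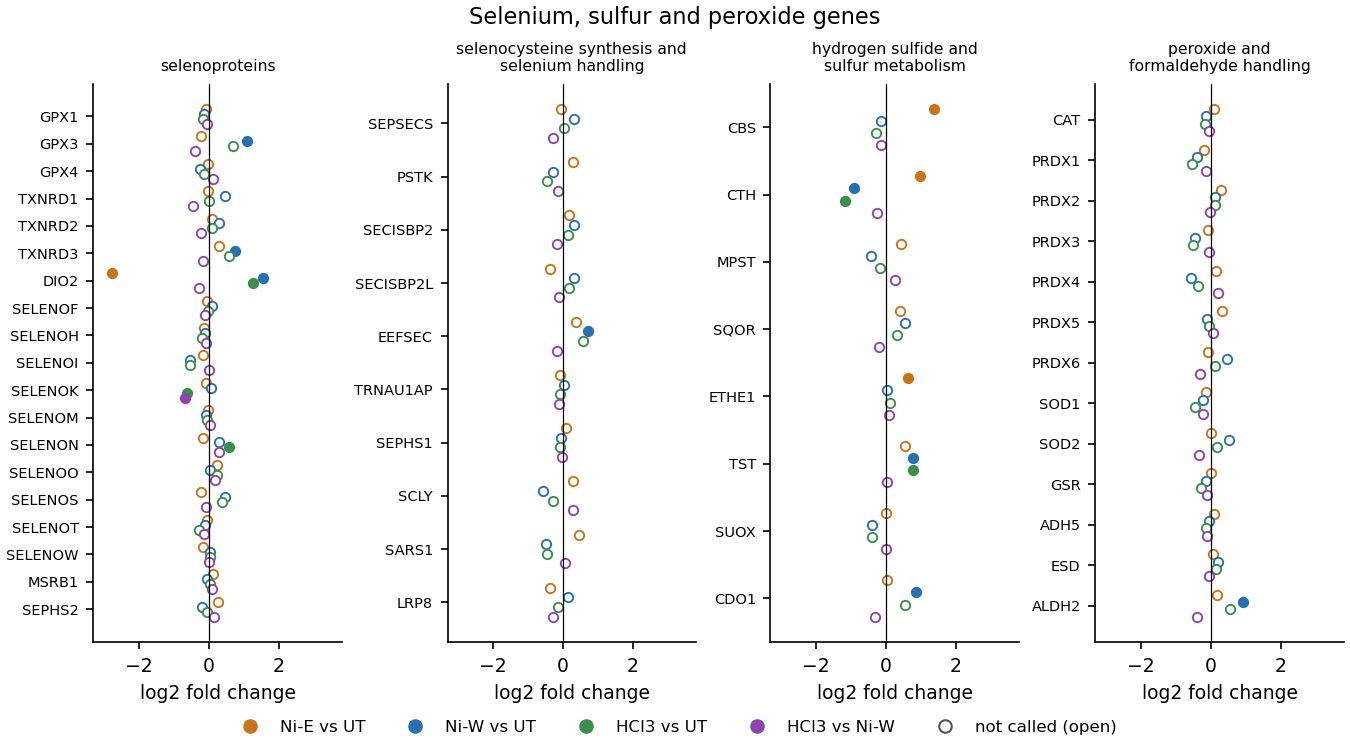
Log2 fold change (x axis) of the 50 list members tested in all 4 comparisons shown, 1 row for each gene, with a point for Ni-E over UT, Ni-W over UT, HCl3 over UT and HCl3 over Ni-W. Filled points passed an adjusted P value under 0.05 and 1.5-fold in DESeq2, and the only filled point of HCl3 over Ni-W is SELENOK at -0.67.

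To describe how common the profile of SELENBP1 is, genes were counted that were lower in Ni-W than in UT, Ni-E and HCl3 and not called between Ni-E and UT. There were 97 such genes, SELENBP1 among them, or 0.698% of the 13895 genes tested in all of these comparisons, which share the Ni-W libraries. At 2-fold the count was 42. The mirror profile, highest in Ni-W, held 161 genes. The median of the 97 genes was 0.91 in HCl3 over Ni-W on the log2 scale, and only 2 exceeded 5. SELENBP1 ranked 2nd by fold, after LOC102724058, which was listed at 0 in both Ni-W libraries and at 0.54 and 0.61 RPKM in HCl3. Within 1 Mb there were 0 of the 97 genes besides SELENBP1, and the nearest on chromosome 1 was RGS4 at 11.7 Mb. No list gene was among the 97. The share of 0.698% is too small for a count of 0 to be read as a result about the neighbours or the lists.

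The genes whose levels over the 8 libraries were most like those of SELENBP1 were ranked by Pearson's r of log2(RPKM + 0.1), among 426 genes whose mean count was 50 or more and a range of group means of at least 2 on the log2 scale. The libraries fall into groups, so these coefficients describe the profile and carry no P value. The closest was GSTM1 (r = 0.981), a glutathione transferase on the same chromosome, at 6.92 and 7.62 RPKM in UT, 7.78 and 8.21 RPKM in Ni-E, 2.13 and 1.38 RPKM in Ni-W, and 8.17 and 8.36 RPKM in HCl3. It has close paralogs, and since reads with several alignments were removed, its level is uncertain. CGREF1 (r = 0.968), which encodes a secreted calcium-binding protein and overlaps KHK on the opposite strand, was at 1.13 and 1.28 RPKM in UT, 1.87 and 2.66 RPKM in Ni-E, 0.21 and 0.14 RPKM in Ni-W, and 1.65 and 1.44 RPKM in HCl3. M1AP (r = 0.962), a gene needed in male meiosis, was at 1.80 to 2.84 RPKM in UT and Ni-E, 0.12 and 0.00 RPKM in Ni-W, and 1.08 and 1.14 RPKM in HCl3.

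CLMP (r = 0.960), which encodes an adhesion molecule of cell junctions, was at 2.92 and 3.11 RPKM in UT, 2.23 and 2.15 RPKM in Ni-E, 0.55 and 0.56 RPKM in Ni-W, and 1.97 and 1.82 RPKM in HCl3. ZNF43 (r = 0.957), a zinc finger gene of a large family of near relatives, had 0.03 and 0.08 RPKM in Ni-W. GAL (r = 0.937), the gene of the neuropeptide galanin, was at 1.70 and 1.73 RPKM in Ni-W and 7.93 and 8.67 RPKM in HCl3. The HCl3 libraries had the highest GAL levels of all 8. PLTP (r = 0.933), which encodes a phospholipid transfer protein, was at 0.83 and 1.12 RPKM in Ni-W and 2.64 and 3.28 RPKM in HCl3. ADM (r = 0.929), the gene of the vasoactive peptide adrenomedullin, was at 191 and 207 RPKM in UT, 144 and 135 RPKM in Ni-E, 50.5 and 48.6 RPKM in Ni-W, and 116 and 121 RPKM in HCl3. WT1 (r = 0.913), a transcription factor of kidney and gonad development, was at 5.86 and 7.53 RPKM in UT, 0.56 and 0.78 RPKM in Ni-W, and 2.65 and 2.58 RPKM in HCl3. For M1AP, CLMP, ZNF43, ADM and WT1 both HCl3 libraries remained below both UT libraries, while for GSTM1, CGREF1 and GAL both were above both UT libraries. The read-through gene RTEL1-TNFRSF6B (r = 0.901) shares its sequence with RTEL1 and TNFRSF6B, so its level is uncertain. Of these 10 genes, 8 were among the 97 and 1 lay on chromosome 1. Both sets were picked from the same libraries by a profile that is low in Ni-W, so their overlap is no separate result.

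**Figure D5:**
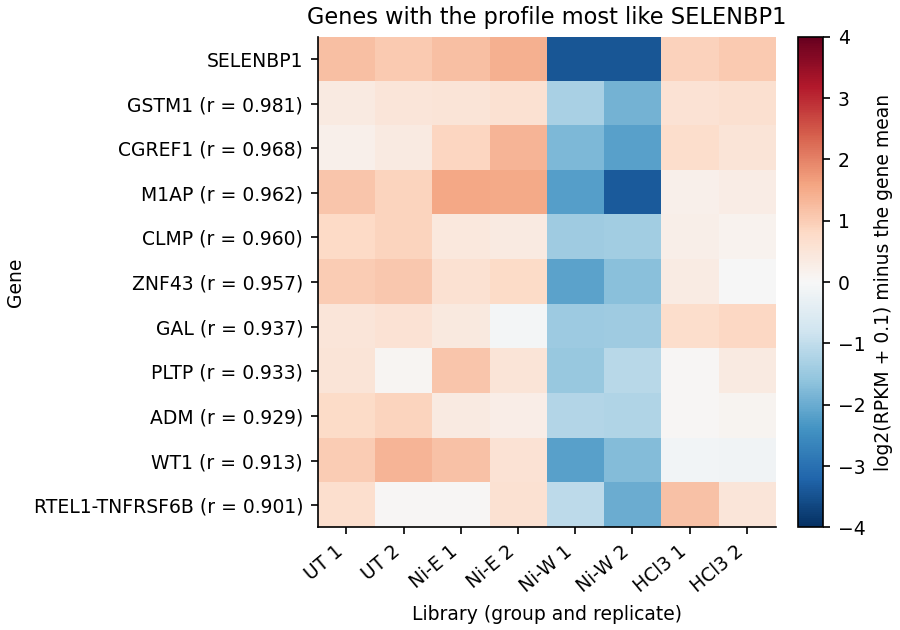
Level of SELENBP1 and of the 10 genes most like it (rows) in the 8 libraries (columns), as log2(RPKM + 0.1) minus the mean of the gene, in colour from blue (low) to red (high). Both Ni-W libraries are blue in all rows, and the HCl3 libraries are near or above the mean of the gene, except that WT1 is slightly below it.

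The opposite profile was led by COBLL1 (r = -0.995), which was at 1.14 and 1.25 RPKM in Ni-W and did not exceed 0.02 RPKM in any other library. FREM2 (r = -0.988), which encodes an extracellular matrix protein, was listed at 0 in UT and Ni-E, at 0.29 and 0.33 RPKM in Ni-W and at 0.03 in both HCl3 libraries. SYK (r = -0.986), a tyrosine kinase best known from blood cells, was listed at 0 in UT and Ni-E, at 3.28 and 3.01 RPKM in Ni-W and at 0.11 and 0.10 RPKM in HCl3. Reads of these genes were thus found mainly in the libraries in which SELENBP1 was lowest.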

How the data were processed

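The authors prepared libraries with a TruSeq RNA kit, used STAR 2.4 for alignment to hg19, kept uniquely aligned reads, and deposited read counts per RefSeq gene from the BioWardrobe system. The RPKM values were also deposited by the authors, corrected for transcript length and library depth. The sources do not state whether counting was strand-specific. Coordinates are given as deposited.

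The deposited counts were fitted for each pair of groups with DESeq2 1.42.0 in R 4.3.3 (4 libraries, Wald test, Benjamini-Hochberg adjustment over all genes tested). A gene was called at an adjusted P value under 0.05 and a change of at least 1.5-fold, after the study's methods. With 2 libraries a group these P values rest on a spread shared across genes, and for a single gene no permutation of 4 libraries reaches 0.05. Alternatives were edgeR 4.0.16 (quasi-likelihood), limma 3.58.1 on log2 RPKM with pseudocounts of 1 and 0.1, TMM size factors, a mean count of at least 10, all 8 libraries, other folds, the replicate suffix as a block, each library left out, and windows of 0.5 and 2 Mb. Removal of the GC trend, known for 91% of 13856 genes, and the crossed block were added after seeing the data, as were the medians under each setting. On counts simulated for HCl3 and Ni-W over 25411 genes, DESeq2 recovered 92 of 100 genes changed by 1 on the log2 scale and 100 of 100 changed by 2, with 0 false calls. For edgeR these numbers were 99 and 100, with 1 false call. The simulation gave all genes the same spread, changed only genes with ample reads and held no GC trend. Its false calls therefore do not give the rate in the real data.

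Groups came from the sample labels. SELENBP1, the gene lists and the tests were chosen with earlier results of these data known. Named were the 3 nearest neighbours on each side with a mean count of at least 10, neighbours and list members called in HCl3 over Ni-W or Ni-W over UT (up to 4 per list and direction), the 2 most abundant uncalled members of each list, and the 10 most and 3 least like profiles. SELENOF was matched through its RefSeq identifier, and MUC5AC was not analysed here. Sequences, chromatin data and other cells of the study were not used here.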

Additional observations from a re-analysis of the deposited data

Results flagged for a closer look

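SELENOK (listed as SELK) differed between the clonal populations. Its change from UT was 0.06 ± 0.15 (SE) on the log2 scale in Ni-W and -0.62 ± 0.15 in HCl3, and the difference itself, HCl3 over Ni-W, was -0.67 ± 0.11 (DESeq2, adjusted P = 5.19e-08), with both HCl3 libraries below both Ni-W libraries. On log2(RPKM + 0.1) in limma the difference was -0.66 with an adjusted P of 0.0556.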

How the results depend on the processing

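SELENBP1 kept the direction of each of its 6 fold changes under every alternative tried. Its value moved by more than the spread only on RPKM with a pseudocount: on log2(RPKM + 1) and log2(RPKM + 0.1) it was -2.28 and -4.53 in Ni-W over UT, 2.18 and 4.41 in HCl3 over Ni-W, and -2.44 and -4.72 in Ni-W over Ni-E. With each library left out in turn it ranged from -6.04 to -5.81, from 5.63 to 5.86 and from -6.23 to -5.99 in the same comparisons. The median of the neighbours stayed within 0.23 to 0.33 in Ni-W over UT and -0.31 to -0.16 in HCl3 over Ni-W, where limma gave -0.16 and -0.22 with pseudocounts of 1 and 0.1. The count of genes lower in Ni-W than in each other group was 42 at 2-fold and otherwise 83 to 119.

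Counts of called neighbours changed as follows. In Ni-E over UT (2 in DESeq2) limma gave 0 with either pseudocount, 2-fold 0, no fold minimum 4, the window of 0.5 Mb 1, and left-out libraries 2. In Ni-W over UT (5) limma with a pseudocount of 1 gave 2, 2-fold 2, no fold minimum 23, windows of 0.5 and 2 Mb 3 and 9, and left-out libraries 2 to 3. In HCl3 over UT (1) edgeR gave 3, GC trend removal 0, 2-fold 0, no fold minimum 4, and the windows 0 and 4. In HCl3 over Ni-W (0) no fold minimum gave 21, the window of 2 Mb 1, and left-out libraries 0 to 1. Counts of called list genes changed likewise. In Ni-E over UT (4) limma gave 0 with either pseudocount, 2-fold 2, no fold minimum 8, and left-out libraries 2 to 4. In Ni-W over UT (9) 2-fold gave 3, no fold minimum 24, and left-out libraries 4 (without the first Ni-W library) to 8. In HCl3 over UT (5) limma with 0.1 gave 8, 2-fold 2 and no fold minimum 18. In HCl3 over Ni-W (1) limma with 0.1 gave 0, 2-fold 0 and no fold minimum 8. Where a stricter or absent fold minimum, fewer libraries or another window was used, the construction of the alternative changes the count. For the others the cause was not tested.

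Replicates share only the suffix of the repeat library. Deviations of same-suffix libraries had an r of -0.14 to 0.19 over 13856 genes, and with the replicate block the called neighbours numbered 2, 4, 1 and 0 and the called list genes 4, 6, 5 and 1 in Ni-E over UT, Ni-W over UT, HCl3 over UT and HCl3 over Ni-W. CTSK, TCHH, GPX3, CDO1 and SOD3 were not called in Ni-W over UT under the block (adjusted P = 0.0531 to 0.109), and ADAMTSL4 was gained there (log2 fold change 0.59). With crossed suffixes, HCl3 over UT gave 1 neighbour and 5 list genes.

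Depth limits SELENBP1 in Ni-W, where 11 reads in all leave the fold uncertain by counting error, and genes such as TCHH, SOD3 and FLG2 at under 1 RPKM. With 2 libraries a group, small changes that miss the threshold are not shown to be absent.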
